A study of Mus musculus with 58 samples.

Results

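The Hox genes of mouse embryonic pancreas cells are described here across the cell classes that live-sorted plates captured. The members were chosen by symbol: every row named Hox, then a, b, c or d, then digits. This rule found 36 of 19699 genes, namely 35 protein-coding Hox genes and the antisense RNA Hoxa11as. Values are given for the 18 genes with at least 30 transcripts over all retained live-sorted cells. The study made 58 SORT-seq libraries from mouse pancreas at 5 embryonic stages, each library from cells sorted one by one into 384-well plates, with transcripts counted by unique molecular identifiers. All mice expressed MIP-GFP, a reporter with GFP under the mouse insulin promoter, and cells were sorted either as viable cells regardless of GFP or for GFP. The results rest on 27 live-sorted libraries on 8 plates from 7 experiments. These numbered 7 libraries at E12.5, 4 at E13.5, 3 at E14.5, 8 at E15.5 and 5 at E18.5. Another 2 live-sorted libraries, with no experiment number in their labels, were not used here.

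Hox genes encode homeodomain transcription factors that lie in chromosomal clusters, named a to d in mammals. Within a cluster they are numbered by paralogue group, and lower-numbered genes are generally used nearer the head of the embryo and higher-numbered genes nearer the tail. In the gut and its derivatives, Hox genes are known mainly from the mesoderm around the endodermal tube, where they help to set regional identity.

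Of 3072 live-sorted wells, 2232 passed a minimum of 2000 transcripts and 500 genes and were used. The plates held between 1222637 and 8038954 transcripts in retained cells, and the median per cell lay between 6919 and 23114. Cells were clustered without Hox genes and without cell cycle genes, and each of 23 clusters was named from marker lists as "like" a cell class. This gave 140 mesothelium-like, 629 mesenchyme-like, 529 endocrine-like and 794 epithelium-like cells, and smaller classes. Mesenchyme-like cells include the clusters named by the pericyte and smooth muscle list. Col3a1, a fibrillar collagen of connective tissue, had a transcript in 100% of mesothelium-like and 100% of mesenchyme-like cells and in 46.9% of epithelium-like cells. Wt1, a mesothelial transcription factor, was detected in 96.4% of mesothelium-like and 37.5% of mesenchyme-like cells, and Epcam, an epithelial adhesion molecule, in 93.3% of epithelium-like cells. Experiment EP17 (E15.5) gave 2 mesenchyme-like and 6 mesothelium-like cells and therefore no sum for either class. One E18.5 plate of EP16, labelled live but coded P6-002, was nearly all endocrine-like, and 3 of its 301 cells had a transcript of a described Hox gene. In the other libraries with a plate code, P4 stands with live-sorted and P6 with MIP-GFP-sorted cells. The sort of this plate may therefore differ from its label, which was not tested. All plates use the same set of well barcodes, and no pair of wells held identical values.

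Levels are in CPM, a gene's transcripts scaled to counts per 1e6 of all transcripts, of the cells of a class summed within an experiment, for sums of at least 10 cells, and the experiment is the replicate. One tag is counted per transcript, so levels of different genes are compared without dividing by length. A fall in such a sum cannot be told apart between fewer transcribing cells and less RNA per cell.

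The 18 described genes held nearly all Hox transcripts of the pancreas. The 36 rows summed to 11792 transcripts, and Hoxa5 alone held 3413 of them (28.9%). Below it came Hoxb2, Hoxb4 and Hoxb3 with 1143, 1088 and 1058 transcripts. Just inside the threshold lay Hoxd3 with 35.2 transcripts and Hoxd4 with 39.1, and just outside it Hoxd8 with 21.0, Hoxc8 with 17.2 and Hoxb1 with 15. Hoxd3 reached the threshold through the neural- and glial-like cells, which held 27.2 of its transcripts, and Hoxd4 with the 15.1 of the endothelium-like cells; 8.0 and 24.1 lay elsewhere. Another 12 rows had fewer still, and Hoxa10, Hoxa13 and Hoxd12 had none. The 12 protein-coding genes of paralogue groups 9 to 13 together gave 29 transcripts, 0.247% of the total. Within the a cluster, Hoxa6 had 2 transcripts, although its neighbours Hoxa5 and Hoxa7 had 3413 and 45.2. Hoxa6 lies inside the GENCODE span of Hoxa3 on the same strand, and how the authors' counting shared reads between such genes is not given in the sources used here.

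**Figure D1:**
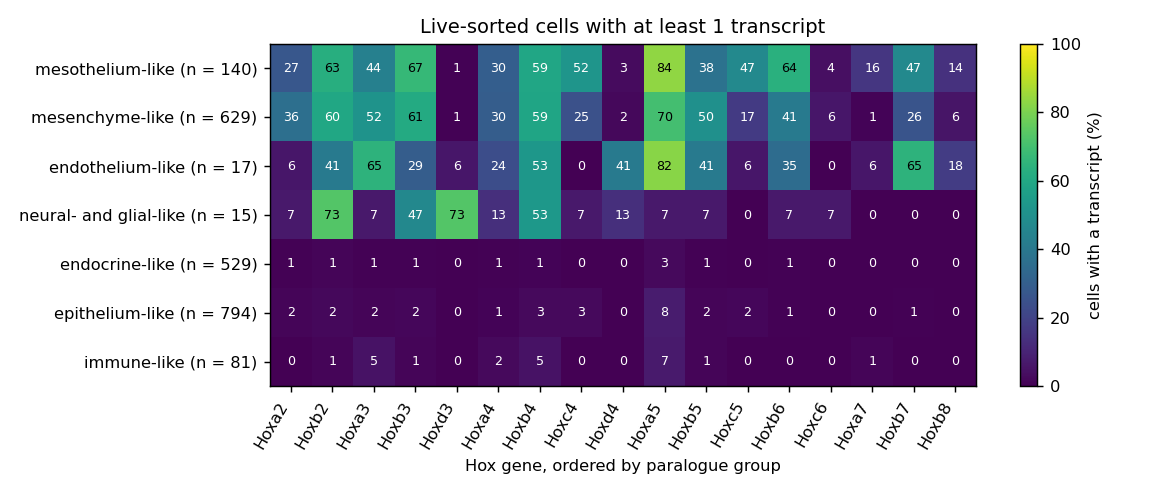
Percent of cells with at least 1 transcript of each of 17 Hox genes (columns, by paralogue group) in 7 cell classes (rows, with their number of cells). Mesothelium-like and mesenchyme-like cells reached 83.6% and 70.0% for Hoxa5, while epithelium-like cells stayed at or below 7.68% for every gene shown.

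Mesothelium-like and mesenchyme-like cells carried the Hox transcripts, and endocrine-like and epithelium-like cells had few. All Hox rows together reached 891 ± 332 CPM in mesothelium-like cells, 852 ± 218 in mesenchyme-like cells, 9.90 ± 11.5 in endocrine-like cells and 11.9 ± 8.27 in epithelium-like cells (SD, n = 6, 6, 6 and 7 experiments). The range was 458 to 1411 in mesothelium-like, 492 to 1057 in mesenchyme-like, 0 to 31.1 in endocrine-like and 2.94 to 22.8 in epithelium-like cells. No mesothelium-like or mesenchyme-like sum overlapped the endocrine-like or epithelium-like sums. At least 1 described gene was seen in 97.9% of mesothelium-like cells (Wilson 95% interval 93.9 to 99.3%), 97.8% of mesenchyme-like cells (96.3 to 98.7%), 8.51% of endocrine-like cells (6.42 to 11.2%) and 21.2% of epithelium-like cells (18 to 24%). The P6-002 plate gave 299 of the 529 endocrine-like cells, and 2 of these had a described gene. Without it the endocrine-like share was 18.7% (14.2 to 24.2%), so the share of this class rests on that plate, and the epithelium-like share was 21.2%. With every cell thinned to 2000 transcripts the shares with the plate were 78.6%, 76.5%, 0.378% and 2.77%. The median cell showed 7 of the 18 genes in the mesothelium-like class, 6 in the mesenchyme-like class and 0 in both others. Intervals cover counting error only.

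Levels peaked at paralogue group 5 in both mesodermal classes, largely through Hoxa5, and ended at group 8. Group 5 (Hoxa5, Hoxb5 and Hoxc5) reached 361 ± 148 CPM in mesothelium-like cells and 345 ± 128 in mesenchyme-like cells (SD, n = 6 each). It held 38.9% of all Hox transcripts in the mesothelium-like class and 40.1% in the mesenchyme-like class. The peak rested on 1 gene, Hoxa5, at 247 CPM in mesothelium-like and 259 in mesenchyme-like cells. Hoxb5 was at 43.7 and 70.7 and Hoxc5 at 69.7 and 14.7 in the same order. On the anterior side, groups 2, 3 and 4 lay between 103 and 146 in mesothelium-like cells and between 121 and 157 in mesenchyme-like cells. On the posterior side, group 8 stood at 10.7 ± 6.51 in mesothelium-like and 6.92 ± 4.13 in mesenchyme-like cells, and group 9 at 1.02 ± 1.60 and 0.926 ± 1.35. The steps from group 4 to group 5 and from group 5 to group 6 were larger than the SDs of the mesenchyme-like class, but no test was made between groups of genes. By chromosomal cluster, the a and b genes dominated. In mesothelium-like cells the a cluster held 39.1% of Hox transcripts, b 46.3%, c 14.3% and d 0.335%, and in mesenchyme-like cells the shares were 48.7%, 45.4%, 5.44% and 0.400%.

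**Figure D2:**
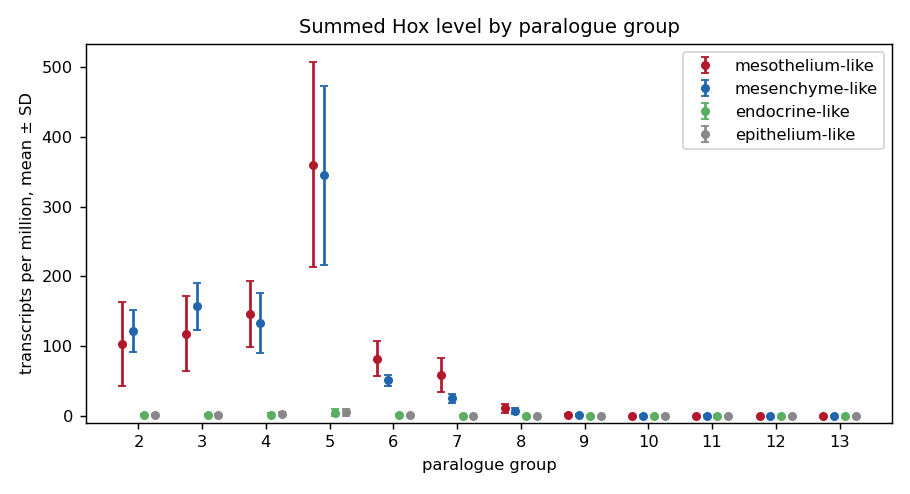
Summed level of the Hox rows by paralogue group, from group 2 on (x axis) in CPM (y axis), as mean ± SD over experiments for 4 cell classes (n = 6, 6, 6 and 7). Both mesodermal classes peak at group 5, largely through Hoxa5, with means of 361 (mesothelium-like) and 345 (mesenchyme-like), and lie near 0 from group 9 on.

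Of the genes, 12 had enough counts to be tested between classes, and every one was higher in mesenchyme-like than in epithelium-like cells. The 12 were Hoxa2, Hoxa3, Hoxa4, Hoxa5, Hoxb2, Hoxb3, Hoxb4, Hoxb5, Hoxb6, Hoxb7, Hoxc4 and Hoxc5. They passed the filter on low counts through the mesodermal classes, so their count was favoured in advance and is a description. edgeR's quasi-likelihood test with the experiment as block called 12 of 12 higher, against 24.8% of all 10862 genes tested called higher. Other genes than Hox and cell cycle genes entered the clustering, so this background holds genes that defined the classes. The differences ran between 4.12 log2 units for Hoxc4 and 6.75 for Hoxb6, with adjusted p of 2.3e-06 or less, and their median was 6.21, against -0.015 over all genes. The labels do not tie experiments to separate embryos or litters, so the p-values cover the spread among these samples, which may be technical.

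Hoxa5, a group 5 gene known in mice for its part in lung and foregut mesoderm, was the most abundant member. Its lowest, median and highest levels were 86.2, 305 and 355 CPM in the 6 mesenchyme-like sums, against 0, 3.25 and 8.80 in the 7 epithelium-like sums. The groups did not overlap, and the difference was 6.06 ± 0.41 log2 units (SE; adjusted p = 1.24e-10). Hoxb2, Hoxb3 and Hoxb4, 3 anterior genes of the b cluster, followed. Hoxb2 had 44.2, 87.4 and 120 CPM in mesenchyme-like sums and 0, 0.954 and 2.93 in epithelium-like sums (log2 difference 6.38 ± 0.40). Hoxb3 had 58.3, 77.8 and 114 against 0, 0.590 and 1.48 (6.53 ± 0.27), the smallest standard error of the 12. Hoxb4 had 47.9, 71.5 and 117 against 0, 0.886 and 3.22 (5.68 ± 0.42).

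The same separation held for the next members by abundance. Hoxa3 had 52.6, 77.1 and 99.4 CPM in mesenchyme-like sums and 0, 0.738 and 1.47 in epithelium-like sums (log2 difference 6.50 ± 0.34). Hoxb5 had 23.9, 77.1 and 105 against 0, 0.241 and 2.81 (6.47 ± 0.47), and Hoxb6 had 34.2, 47.3 and 54.6 against 0, 0.241 and 1.47 (6.75 ± 0.46). None of these genes overlapped between the classes, but the share of all tested genes without overlap was not counted. Hoxa4 and Hoxa2 had medians of 30.3 and 34.3 in mesenchyme-like sums and of 0.241 and 0 in epithelium-like sums, with log2 differences of 6.13 ± 0.45 and 5.56 ± 0.51. The c cluster genes differed least: Hoxc4 by 4.12 ± 0.37 and Hoxc5 by 4.20 ± 0.55. Hoxb7, the most posterior gene tested, had a median of 22.0 against 0 and differed by 6.30 ± 0.48.

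The other 6 genes did not pass the filter, and values of 5 of them follow. In mesenchyme-like and epithelium-like cells, Hoxb8 was seen in 5.72% and 0.378%, Hoxc6 in 5.88% and 0.126%, and Hoxd3 in 0.636% and 0.126%. Hoxd4 was seen in 2.23% of mesenchyme-like cells and in 0 of 794 epithelium-like cells, which allows a share of up to 0.378%. Hoxa7 was seen in 0.954% of mesenchyme-like cells and likewise in 0 of 794 epithelium-like cells.

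The share of epithelium-like cells with Hox transcripts was close to that of immune-like cells, the class set beside them here for comparison. Hoxa5 was seen in 7.68% of epithelium-like cells at a median depth of 19804 transcripts and in 7.41% of the 81 immune-like cells at a median depth of 10699. Any described gene was seen in 21.2% of epithelium-like and 22.2% of immune-like cells, and after thinning in 2.77% and 2.47%. By pooled level, Hoxa5 was at 3.72 CPM in epithelium-like and 7.40 in immune-like cells. The immune-like cells were not shown to lack Hox expression. Whether these shares, or the higher shares of single clusters below, are background or expression was not tested. Among epithelium-like cells, 163 showed 1 or 2 members and 5 showed 3 or more, of a total of 794. The summed mesenchyme markers had a median of 912 CPM in the 5 cells with 3 or more members, 1390 in the 163 with 1 or 2 and 1314 in the cells with none. In mesenchyme-like cells the median was 14839. In endocrine-like cells it was 699 in the 2 cells with 3 or more members, 605.5 in the 43 with 1 or 2 and 0 in the cells with none. Most of the endocrine-like cells with none came from the P6-002 plate, which gave 299 cells of the class, 2 of them with a member. Plate and Hox detection cannot be told apart in these medians. The highest share of the epithelium-like clusters was in 24 shallow acinar-like cells of EP10, with a median of 2998 transcripts: 11 of them, 45.8% (27.9 to 64.9%), had a Hox transcript. The 160 epithelial progenitor-like cells of mainly EP11 followed, with 35% at a median depth of 25676. After thinning the share was 29.2% (14.9 to 49.2%) in these acinar-like cells and 2.5% (0.976 to 6.25%) in these epithelial progenitor-like cells.

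Mesothelium-like cells, which resemble the serosal lining of the organ, had the same 12 genes higher than epithelium-like cells. edgeR's quasi-likelihood test called 12 of 12 higher, against 20.3% of all genes tested. Here too the 12 passed the filter through the mesodermal classes, so the count is a description. The differences lay between 4.60 log2 units for Hoxa2 and 7.48 for Hoxb6, with a median of 5.99, against -0.044 over all genes. Hoxa7 had a transcript in 15.7% of mesothelium-like cells and in none of the 794 epithelium-like cells.

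Between the mesodermal classes, the c cluster genes Hoxc4 and Hoxc5 were higher and Hoxa3 was lower in mesothelium-like than in mesenchyme-like cells. edgeR's quasi-likelihood test called 2 of 12 higher, against 11.2% of all genes tested, and 1 of 12 lower, against 8.05%. The median over the 12 was -0.14 log2 units, against -0.036 over all genes. Summed over the described members, the classes were at 886 ± 330 CPM in mesothelium-like and 847 ± 221 in mesenchyme-like cells (SD, n = 6 each), and mesothelium-like cells were higher in 3 of 6 experiments. The numbers of members called are near those backgrounds.

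Hoxc5 had 78.3 (EP10), 70.3 (EP11), 114 (EP12), 62.9 (EP14), 6.72 (EP16) and 86.1 (EP18) CPM in mesothelium-like cells, against 11.9, 17.1, 18.2, 24.5, 11.2 and 5.40 in mesenchyme-like cells of those experiments. It was higher in mesothelium-like cells in 5 of 6 experiments, and EP16, the only E18.5 experiment, was the exception. The difference was 2.04 ± 0.42 log2 units (SE; adjusted p = 0.00146). Hoxc4 had 51.5, 63.1, 58.5, 50.2, 33.6 and 69.3 in mesothelium-like cells of the same 6 experiments, against 22.7, 25.4, 22.4, 24.9, 27.7 and 9.0 in mesenchyme-like cells. It was higher in 6 of 6 experiments and the classes did not overlap. The difference was 1.21 ± 0.30 (adjusted p = 0.00605). By share of cells, Hoxc4 was seen in 52.1% of mesothelium-like and 24.6% of mesenchyme-like cells and Hoxc5 in 47.1% and 17%. Hoxc5 has a GENCODE span that covers Hoxc6, Hoxc8, Hoxc9 and Hoxc10 on the same strand, so its reads may not all be its own.

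Hoxa3, a group 3 gene known in mice for pharyngeal organs, had 12.3, 37.8, 34.4, 57.3, 30.3 and 63.9 CPM in mesothelium-like cells of the same 6 experiments, against 52.6, 52.8, 97.4, 94.8, 59.3 and 99.4 in mesenchyme-like cells. It was lower in 6 of 6 experiments, although the ranges of the classes overlapped. The difference was -1.02 ± 0.26 log2 units (adjusted p = 0.0075), and its GENCODE span covers Hoxa4, Hoxa5 and Hoxa6 on the same strand. The 3 calls were lost with sums of at least 20 cells, which leave 3 mesothelium-like sums, and the call of Hoxa3 was lost without the experiment as block (adjusted p = 0.0747).

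The differences between the 2 mesodermal classes are given next by paralogue number, without a test of the order. Of the 12 tested genes, all a and b genes of groups 2 to 5 had a log2 difference below 0, and Hoxb6, Hoxb7, Hoxc4 and Hoxc5 had one above 0. Hoxa2, Hoxb5, Hoxb6 and Hoxb7 were not called, with the smallest adjusted p of the rest. Hoxa2 stood at -0.96 ± 0.43 (adjusted p = 0.127) and Hoxb5 at -0.88 ± 0.36 (adjusted p = 0.0918), each lower in mesothelium-like cells in 6 of 6 experiments. Hoxb6 stood at 0.73 ± 0.29 (adjusted p = 0.0855), with 79.0 ± 21.2 CPM in mesothelium-like and 46.2 ± 8.48 in mesenchyme-like cells, and Hoxb7 at 0.85 ± 0.32 (adjusted p = 0.07). Summed by group over the described members, group 3 was at 118 ± 54.3 in mesothelium-like and 157 ± 34.3 in mesenchyme-like cells, group 6 at 81.7 ± 24.5 and 50.7 ± 7.52, and group 7 at 58.8 ± 24.9 and 25 ± 5.92 (SD, n = 6 each). Mesothelium-like cells were higher in 1 of 6 experiments for group 3 and in 6 of 6 for groups 6 and 7. Hoxc6 of group 6, which did not pass the filter, went the other way, at 2.70 CPM in mesothelium-like and 4.45 in mesenchyme-like cells, and was higher in 2 of 6 experiments. Hoxa5, the most abundant gene, was at 247 ± 99.9 and 259 ± 101 and differed by -0.11 ± 0.31 (adjusted p = 0.873).

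Hoxa7, a group 7 gene of the trunk, did not pass the filter and is given by its values. It had 10.3, 22.4, 20.6, 1.39, 6.72 and 16 CPM in mesothelium-like cells of EP10, EP11, EP12, EP14, EP16 and EP18, against 0.795, 2.66, 0, 0, 0.747 and 0 in mesenchyme-like cells. Each experiment was higher in mesothelium-like cells, though the EP14 value lay within the range of the mesenchyme-like sums. Hoxa7 was seen in 22 of 140 mesothelium-like cells (15.7%, 10.6 to 22.6%) and in 6 of 629 mesenchyme-like cells (0.954%, 0.438 to 2.07%). In a fit with no filter on low counts its difference was 3.74 ± 0.77 log2 units (adjusted p = 0.00216), a value that depends on the prior count because 3 mesenchyme-like sums were at 0. Hoxb8, at 9.81 ± 6.60 in mesothelium-like and 3.72 ± 1.01 in mesenchyme-like cells, was higher in 5 of 6 experiments.

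**Figure D3:**
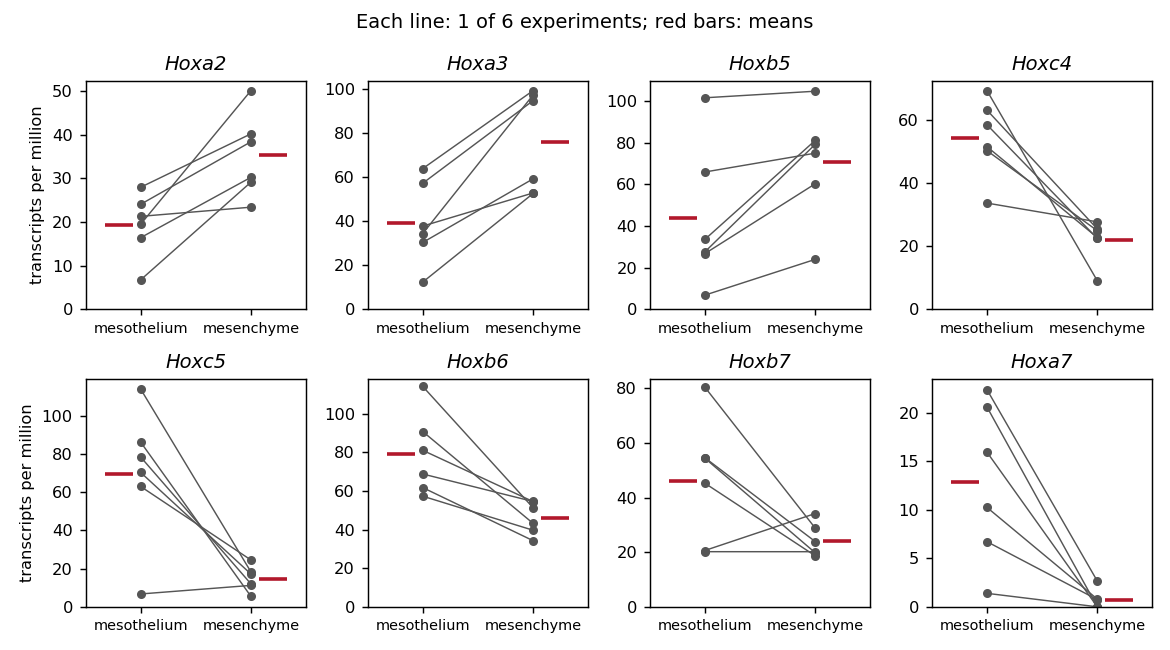
Levels of 8 Hox genes in CPM (y axis) in mesothelium-like (left) and mesenchyme-like (right) cells. Each line joins the 2 values of 1 of 6 experiments and red bars are means. Hoxc4 is higher on the left in 6 of 6 experiments and Hoxc5 in 5 of 6, and Hoxa3 is lower on the left in 6 of 6.

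Promoter sequence is shown for Hoxc4 and Hoxa3, which were called between the mesodermal classes, and for the most abundant gene, Hoxa5. It is also shown for Hoxd3, which stood out in the neural- and glial-like cells described further on. Each is the 250 bases before the RefSeq start, 5′ to 3′ on the gene's strand, from RefSeq on GRCm38.p6, the assembly called mm10 in the submitters' processing notes. Capitals mark matches on either strand to AGGTCA, the core motif of retinoic acid receptors, which control Hox genes in many tissues. The GENCODE spans start elsewhere for Hoxc4, Hoxa3 and Hoxd3: their windows lie within or across the start of those spans, and the Hoxa5 window ends at its GENCODE start. The table used held promoters of 9 of the 18 described genes. Hoxc5, which had the largest called difference between the mesodermal classes, was not among them.
Hoxc4, chr15:103034145-103034394, plus strand: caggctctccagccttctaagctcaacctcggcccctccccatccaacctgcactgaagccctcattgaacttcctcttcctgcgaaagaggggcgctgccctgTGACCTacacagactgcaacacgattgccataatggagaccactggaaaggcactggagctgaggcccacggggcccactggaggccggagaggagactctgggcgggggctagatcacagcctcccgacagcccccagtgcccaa
Hoxa3, chr6:52213068-52213317, minus strand: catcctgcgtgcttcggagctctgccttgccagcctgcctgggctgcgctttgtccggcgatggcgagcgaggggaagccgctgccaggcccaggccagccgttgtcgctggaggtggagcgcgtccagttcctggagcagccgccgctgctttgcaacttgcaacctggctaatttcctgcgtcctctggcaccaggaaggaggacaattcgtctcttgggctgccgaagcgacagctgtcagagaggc
Hoxa5, chr6:52204588-52204837, minus strand: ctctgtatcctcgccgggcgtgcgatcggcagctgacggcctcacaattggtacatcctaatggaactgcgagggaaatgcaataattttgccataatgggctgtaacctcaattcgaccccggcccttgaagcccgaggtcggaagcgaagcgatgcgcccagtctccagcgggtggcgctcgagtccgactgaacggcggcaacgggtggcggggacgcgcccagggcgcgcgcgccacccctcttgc
Hoxd3, chr2:74711743-74711992, plus strand: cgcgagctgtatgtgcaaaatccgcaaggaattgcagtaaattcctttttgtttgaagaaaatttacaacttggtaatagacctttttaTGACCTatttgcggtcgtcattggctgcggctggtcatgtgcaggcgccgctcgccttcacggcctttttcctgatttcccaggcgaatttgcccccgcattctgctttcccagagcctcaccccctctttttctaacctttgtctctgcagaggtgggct
Hoxc4 holds 1 match starting at position -146 from the start and Hoxd3 1 at -161, while Hoxa3 and Hoxa5 hold none in this window. Over the 9 promoters, AGGTCA occurred in 4 (44.4%: Hoxb4, Hoxc4, Hoxd3 and Hoxd4), against 14% of 32817 promoters of the same length. The Hox and Pbx motif TGATNNAT occurred in 2 (Hoxa2 and Hoxb8), against 7.69% of all, and CCAAT in 5, against 33.8%. Matches of different motifs overlapped in 0 of the 9 promoters. CG dinucleotides numbered between 3 (Hoxd4) and 28 (Hoxa5), with a median of 12 over the 9 promoters and 6 over all. A match in this window is a description and not a site.

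Within the mesenchyme-like class, Hox use differed between clusters, which were largely stage-specific. Cluster 3 held 116 of its 128 cells from EP16 (E18.5), cluster 8 held 70 of 77 from EP10 (E15.5) and cluster 16 held 44 of 46 from EP11 (E12.5). Cluster 4 came from EP12 and EP14 (45 and 102 of 151 cells), cluster 19 from EP11 and EP18 (80 and 50 of 135), and cluster 10, led by cell cycle genes, from 5 experiments with 16 to 20 cells each and 1 cell of EP16. Hoxa5 was at 102 CPM in cluster 3, 193 in cluster 8, 229 in cluster 16, 273 in cluster 10, 328 in cluster 4 and 331 in cluster 19. Hoxb5 was at 22.6 in cluster 3 and between 56.5 and 85.2 in the others. Hoxc4 did not follow them, with 28.2 in cluster 3 and 19.0 to 43.6 in the others. No test was made between clusters. Tlx1, a transcription factor of the spleen mesenchyme, which adjoins the pancreas, had a transcript in 28.3% of mesenchyme-like cells and in 0.88% of epithelium-like cells. By cluster its share was 5.47% in cluster 3, 31.1% in cluster 4, 44.2% in cluster 8, 48.9% in cluster 10, 0% in cluster 16 and 33.3% in cluster 19. Whether the class holds cells of the spleen primordium was not tested.

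Cluster 16 had the highest levels of Hoxa7 and Hoxb8 in the class. Its leading genes included Hand1 and Mab21l2, transcription regulators of gut and heart mesoderm. Hoxa7 was at 10.5 CPM in it and in 4 of 46 cells, against at most 1.88 in the 5 other mesenchyme-like clusters. Hoxb8 was at 15 CPM and in 10 of 46 cells, against 2.18 to 4.20 CPM. Hoxb4, Hoxb6 and Hoxc4, at 120, 75.2 and 43.6, also had their highest values of the class there. Cluster 19 took 80 cells from the same EP11 plate and had Hoxa7 in 0 of 135 cells, which allows up to 2.22%.

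Across stages, Hoxa5 fell in mesenchyme-like cells. It had 306 and 315 CPM in the 2 experiments at E12.5, 355 at E13.5, 304 at E14.5, 190.4 at E15.5 and 86.2 at E18.5. The 4 sums up to E14.5 all lay above the sums of E15.5 and E18.5. The slope was -0.28 ± 0.07 log2 units per day (SE, 6 experiments; edgeR's quasi-likelihood test, adjusted p = 0.0431). It was the 1 call among 12 members tested, against 0.899% of 8675 genes called falling. The call was lost without EP10, EP11, EP12, EP14 or EP16, with adjusted p between 0.0568 and 0.682, and without EP16 the slope was -0.19. Tlx1 was in 34.3% and 19.1% of the mesenchyme-like cells at E12.5 (EP11 and EP18), 33.8% at E13.5, 32.5% at E14.5, 42.2% at E15.5 and 5.98% at E18.5. In the cells with no Tlx1 transcript Hoxa5 was at 303, 345, 447, 341, 216 and 88.4 CPM in the same order. Within the cells of cluster 10, which has sums at E12.5 to E15.5, the slope was -0.12 (adjusted p = 0.837).

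Hoxb5 and Hoxb2 had values below 0 that missed the threshold. Hoxb5 had 75.0 and 105 CPM at E12.5, 79.2 at E13.5, 81.1 at E14.5, 60.3 at E15.5 and 23.9 at E18.5, a slope of -0.26 ± 0.07 (adjusted p = 0.0755). Hoxb2 had 92.5 and 108 at E12.5, 120 at E13.5, 82.4 at E14.5, 67.8 at E15.5 and 44.2 at E18.5, a slope of -0.17 ± 0.06 (adjusted p = 0.14). Both had their lowest value at E18.5. The other 9 members had slopes between -0.21 (Hoxa4) and 0.12 (Hoxc4), with adjusted p of 0.372 or more. The experiments at E12.5 differed from each other for some genes: Hoxa4 was at 49.5 in EP11 and 12.6 in EP18, and Hoxc4 at 25.4 and 9.0.

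**Figure D4:**
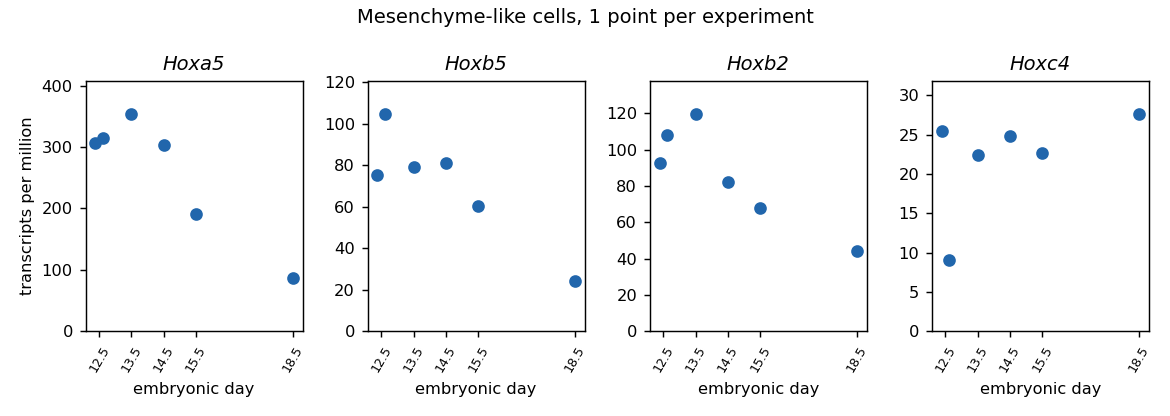
Levels of Hoxa5, Hoxb5, Hoxb2 and Hoxc4 in mesenchyme-like cells in CPM (y axis, from 0) by embryonic day (x axis), 1 point per experiment, with the 2 experiments at E12.5 set side by side. Hoxa5 lies at 304 or above up to E14.5 and at 86.2 at E18.5, while Hoxc4 shows no such fall.

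The E18.5 experiment stood low in mesothelium-like cells too. The summed level of the described members was 1115 (EP11) and 1406 (EP18) CPM at E12.5, 778 at E13.5, 817 at E14.5, 745 at E15.5 and 455 at E18.5, and in mesenchyme-like cells 961, 945, 1055, 966, 679 and 478 in the same order. EP16 was the lowest of 6 experiments for 12 of 18 members in mesothelium-like cells and for 7 of 18 in mesenchyme-like cells, where EP10 was the lowest for 5. The share of all genes that were lowest in EP16 was not counted. At E18.5 the mesothelium-like cells fell almost all into a cluster of their own, which led with Msln, a mesothelial surface protein. In that cluster Hoxc5 was in 2 of 19 cells, against 64 of 121 cells of the other mesothelium-like cluster. Hoxb6 was at 59.2 CPM in the E18.5 cluster and 86.5 in the other. E18.5 rests on 1 experiment with mesodermal cells, so stage and experiment cannot be told apart there.

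In epithelium-like cells no described gene passed the filter for a slope over stages, and in a fit with no filter 0 of 16 genes were called, with 0 at an unadjusted p under 0.05. The slope in mesenchyme-like cells minus that in epithelium-like cells was called for 0 of 12 members by edgeR's quasi-likelihood test and for 0 by DESeq2, with 0 at an unadjusted p under 0.05 in both, against 2.68% of 10943 genes called in either direction. The largest absolute difference was -0.57 ± 0.33 log2 units per day for Hoxb5 (adjusted p = 0.485). Epithelium-like levels lay near 0, and the standard errors of the difference ran from 0.22 (Hoxb3) to 0.41 (Hoxb7). A difference as large as the Hoxa5 slope in mesenchyme-like cells, -0.28, could hardly have been called. The 0 of 12 therefore does not show that the slopes were alike. The share of epithelium-like cells with any described gene ranged between 1.01% in EP17 and 43.4% in EP10, which are both E15.5. Their median depths were 7379 and 30537 transcripts.

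Endocrine-like cells differed from epithelium-like cells in 1 of 12 members, and both classes lay near 0. edgeR's quasi-likelihood test called Hoxc4 lower, against 28.4% of all genes tested called lower. Hoxc4 was at 0.189 ± 0.397 CPM in endocrine-like and 1.12 ± 1.00 in epithelium-like cells (SD, n = 6 and 7), seen in 2 of 529 and 20 of 794 cells. In immune-like cells it was seen in 0 of 81, which allows up to 3.70%. The difference was -2.11 ± 0.81 log2 units (adjusted p = 0.0318). Hoxc4 was higher in endocrine-like cells in 0 of 6 experiments, and in EP17 it was at 0 in both classes. The call was lost with DESeq2 (adjusted p = 0.0614), without EP11 or EP16, and without the P6-002 plate (adjusted p = 0.27). Beta-like cells of the 2 clusters showed any described gene in 6.97% and 2.70%, alpha-like cells in 16.2% and endocrine precursor-like cells in 13.3%, shares at or below that of immune-like cells. Hoxa7, Hoxb8 and Hoxd3 were in 0 of 529 endocrine-like cells, which allows up to 0.567% each.

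The endothelium-like and the neural- and glial-like classes carried Hox genes in other combinations. Their cells numbered under 10 in every experiment, so no sum was tested and intervals are exact Poisson intervals of pooled cells for counting error only. In the 15 neural- and glial-like cells, with Sox10 and other leading genes of neural crest derivatives, Hoxd3 led with 27 transcripts, those that brought it past the threshold, or 85.0 CPM (56.0 to 124), in 11 cells from 4 experiments. In mesenchyme-like cells Hoxd3 was at 0.380 (0.100 to 0.980), in 4 of 629 cells. Hoxb2 was at 69.3 CPM in the neural- and glial-like cells and in 11 of 15 of them, Hoxb4 in 8 and Hoxb3 in 7. Hoxa5 was in 1 of the 15 cells, and Hoxc5, Hoxa7, Hoxb7 and Hoxb8 were in 0, which allows a share of up to 20% each. Of these 15 cells 8 came from EP12.

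The 17 endothelium-like cells, through which Hoxd4 likewise passed the threshold, had it at 29.7 CPM (16.6 to 49.0), in 7 cells from 4 experiments, against 1.54 (0.880 to 2.50) in mesenchyme-like cells, where it was in 14 of 629. Hoxb7 was at 51.5 (33.7 to 75.5) in endothelium-like and 22.3 (19.5 to 25.4) in mesenchyme-like cells. Hoxa5 was in 14 of the 17 cells and Hoxa3 in 11. Hoxc4 was in 0 of 17, which allows up to 17.6%. Hoxd3 and Hoxd4 share a GENCODE span on the same strand, and each of the small classes showed mainly 1 of them: 2 transcripts of Hoxd4 in neural- and glial-like cells and 1 of Hoxd3 in endothelium-like cells.

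Genes that act with or upstream of Hox proteins were described from lists. These genes entered the clustering, so their differences between classes are descriptions. Of 8 tested TALE cofactors, homeodomain partners that bind DNA with Hox proteins, 6 passed the threshold as higher and 0 as lower in mesenchyme-like against epithelium-like cells, where 24.8% and 26.2% of all genes did, with a median of 1.12 log2 units against -0.015 over all genes. Among them were Pknox2 (4.37), Meis3 (2.80) and Meis1 (1.59). In mesothelium-like against mesenchyme-like cells 0 passed as higher and 3 as lower, where 11.2% and 8.05% of all genes did: Pknox2 (-2.88), Meis3 (-2.06) and Pknox1 (-0.84). Over stages in mesenchyme-like cells, Meis2 had a slope of -0.39 ± 0.07 per day (adjusted p = 0.0138), the 1 call among the 8, against 0.899% of all genes called falling.

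Of 15 tested genes of the retinoic acid pathway, 10 passed as higher and 2 as lower in mesenchyme-like against epithelium-like cells, against the same 24.8% and 26.2% of all genes. They were led by Cyp26b1, which degrades retinoic acid (5.01), the receptor Rarb (4.82), Rdh10 (3.2), an enzyme of retinoic acid synthesis, and Stra6 (3.15), which takes up retinol. In mesothelium-like against mesenchyme-like cells 3 passed as higher and 3 as lower, against 11.2% and 8.05% of all genes. Aldh1a2, which makes retinoic acid and was on the mesothelial marker list, stood at 4.64, Dhrs3 at 3.15, Crabp2 at 1.76 and Cyp26b1 at -4.53. Of 14 Polycomb and Trithorax regulators, which keep Hox genes silent or active, 1 passed as higher and 3 as lower in mesenchyme-like against epithelium-like cells, against those 24.8% and 26.2%, among them Suz12 (-0.66), Bmi1 (-0.62) and Kat6a (0.60). None passed in mesothelium-like against mesenchyme-like cells. Of the 6 ParaHox and caudal genes, relatives of the Hox genes that include the pancreatic regulator Pdx1, only Pdx1 passed the filter, at -4.81 in mesenchyme-like against epithelium-like cells, where 26.2% of all genes were called lower.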

How the data were processed

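Transcripts of single mouse pancreas cells were measured by SORT-seq. The authors deposited expected counts, estimates of the transcripts of each gene in a well from distinct molecular identifiers. They are not all whole numbers and are not scaled for depth. BWA, Seurat and mm10 are named, without versions, per the submitters' processing notes. The table holds 7296 wells, of which 5760 could be matched to libraries by plate name; the other 1536 stayed unused. Spike-ins were left out. Cells were sorted singly and no doublet caller was run, but an alternative chosen after seeing the data dropped 7 wells holding more than 5 times the median of their plate. Depth per plate stands with the results.

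Cells were clustered in scanpy 1.11.5 on 2000 variable genes (Hox and cell cycle genes excluded), with 30 principal components, 15 neighbours and Leiden resolution 1. A cluster was named by the marker list of which it raised the greatest part (2-fold or more, in 25% or more of its cells, 3 markers or more), so names rest on rebuilt clusters. Counts were rounded, summed per experiment and class, and tested with edgeR 4.0.16 in R 4.3.3: quasi-likelihood test, TMM scaling, filterByExpr, and Benjamini-Hochberg adjustment over all genes with a threshold of 0.05. All 4 classes shared 1 fit with the experiment as block, because classes of an experiment come from the same plates. Slopes used the embryonic day as a number. On simulated data, the mesothelium-like against mesenchyme-like step over 10817 genes recovered 26.5% of 2-fold and 90% of 4-fold changes. Alternatives covered scaling, DESeq2, filters, gates, cell minimums, plates, experiments left out and the block.

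The members, lists and tests were chosen with earlier results of these data known. Statistics are given for the 10 members with the most transcripts and for called members, and at most 4 called genes of each list are named, by size of change. Hoxa7, Hoxd3, Hoxd4, Hoxb8 and the other members named outside that rule were chosen after their values were seen. Some genes that the rule selects are not reported here.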

Additional observations from a re-analysis of the deposited data

Results flagged for a closer look

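Of 36 groups of 6 experiments examined, 18 genes in 2 mesodermal classes, 6 held a value far from the other 5, where chance alone gives about 1 in 20. In EP18 (E12.5) these were Hoxa5 at 438 and Hoxd3 at 10.7 CPM in mesothelium-like cells, high against the other experiments. The Hoxd3 value is 2 transcripts in 1 of 18 cells and the 5 other sums were at 0, so any value above 0 would have stood apart. In mesenchyme-like cells of EP18, Hoxd4 was high at 7.20 and Hoxc4 low at 8.99 CPM. Hoxc6 was high at 11.2 in mesenchyme-like cells of EP16 (E18.5), and Hoxa7 was high at 2.66 in mesenchyme-like cells of EP11 (E12.5).

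The MIP-GFP-sorted plates entered no comparison, and 6 of their 7 plates showed described Hox genes. The share of cells with any of them was 18.6% in EP11 and 10.4% in EP18 (both E12.5), 4.42% in EP12 (E13.5), 14.3% in EP14 (E14.5), 6.42% in EP10 and 2.10% in EP17 (both E15.5). In EP16 (E18.5) it was 0 of 319 cells, which allows up to 0.940%. Cells with 5 or more of the 18 genes numbered 10 in EP10, 7 in EP14 and 1 in EP11.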

How the results depend on the processing

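Over the named genes, 559 values under alternatives kept the direction and the side of the threshold, 15 lost the call, 14 gained one and none changed sign. All of the changes lay outside the comparisons of a mesodermal class with epithelium-like cells, whose large differences make up most of the 559. The call of the Hoxa5 slope was kept in 10 alternatives and lost in 6. That of Hoxc4 in endocrine-like against epithelium-like cells was kept in 11 and lost in 5. Members higher in mesenchyme-like and in mesothelium-like than in epithelium-like cells stayed at 12 to 13 with each experiment left out in turn, and numbered 17 in each comparison with no filter on low counts. For mesothelium-like against mesenchyme-like cells the calls numbered 3, between 3 and 5 with each experiment left out, 5 with gates on marker sums, 5 without the P6-002 plate, 7 when only these classes were fitted and 0 with at least 20 cells per sum (2 at an unadjusted p under 0.05). Without the replicate block there were 2 calls, and 12 in each comparison of a mesodermal class with epithelium-like cells. For endocrine-like against epithelium-like cells the 1 call became 0 with DESeq2 (1 at an unadjusted p under 0.05), with gates and without the P6-002 plate (0 at an unadjusted p under 0.05 in both), and 0 to 2 with each experiment left out. For the slope in mesenchyme-like cells the 1 call became 2 with DESeq2 and 2 with no filter, 0 within cluster 10, and 0 to 1 with each experiment left out; the difference of slopes stayed at 0. The causes were not tested, apart from the fewer sums. Thinning moved the shares of cells with any described gene to 78.6% (mesothelium-like), 76.5% (mesenchyme-like), 0.38% (endocrine-like) and 2.77% (epithelium-like). Without the P6-002 plate, an alternative chosen after seeing the data, the endocrine-like share was 18.7% and the other 3 stayed within their intervals. With only the wells the authors kept, mesodermal fits could not be made and no member passed the filter for endocrine-like against epithelium-like cells. Depth limits the genes under about 10 CPM, most of which failed the filter.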
